A study of Homo sapiens with 12 samples.

Results

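RAS-ERK signalling switches on its own brakes. The genes followed here encode 10 of them: the dual-specificity phosphatases DUSP4, DUSP5, DUSP6 and DUSP7, the Sprouty proteins SPRY1, SPRY2 and SPRY4, and the Sprouty-related proteins SPRED1, SPRED2 and SPRED3. They were taken by gene symbol, 10 of the 23273 genes listed, and their RNA levels were followed in COLO858 and MMACSF, human BRAF-mutant melanoma cell lines grown in culture. Each line was given the vehicle DMSO, 0.2 μM vemurafenib (an inhibitor of mutant BRAF) for 24 h, or 0.2 μM vemurafenib for 48 h, with 2 replicate libraries a group and 12 libraries in all. Each replicate was a plate of the same line, the DMSO plates carry no harvest time in the labels, and the 24 h and 48 h comparisons share their DMSO libraries. COLO858 was seeded more thinly than MMACSF and the lines were grown in different media, so line and culture conditions cannot be told apart.

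In the pathway, RAS activates RAF, RAF activates MEK, and MEK phosphorylates ERK, which in turn drives transcription through factors such as those of the ETS family. The DUSP genes encode phosphatases that remove phosphate from MAP kinases: DUSP5 acts on ERK in the nucleus, DUSP6 and DUSP7 act on ERK in the cytoplasm, and DUSP4 is a nuclear enzyme that also acts on other MAP kinases. Sprouty proteins dampen signalling from receptor tyrosine kinases towards RAS and RAF. SPRED proteins bind neurofibromin, the product of NF1, and bring it to the membrane, where it turns RAS off. In melanoma cells with mutant BRAF, DUSP6, DUSP4 and the Sprouty genes are commonly used as readouts of ERK output.

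Levels are given in FPKM, a count of fragments scaled to transcript length and to the fragments mapped, a unit that corrects for transcript length and so allows levels of different genes to be set side by side. Changes are log2 fold changes of FPKM + 1 with their standard errors (SE). The threshold was an adjusted p of 0.01 from limma, with Benjamini-Hochberg adjustment over all genes that reached a group mean of 1 FPKM in the line. All 10 members passed that minimum in COLO858, among 12696 genes, and 9 of 10 did in MMACSF, among 12599 genes, where SPRED3 stayed below it. Values of the lines stand in separate tables and no source says that they were scaled together, so levels of the lines are set side by side without a test.

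Of the 10 genes, 8 matched RefSeq entries with promoter sequence (assembly GRCh38.p14), with 13 windows in all, each covering 250 bases before a transcription start. Windows of 4 members are shown, picked by name and not by a rule on the responses. They are SPRY4, with the largest fall of the members in both lines, and DUSP6, whose 48 h fall was larger in MMACSF. The others are SPRY1, a member that fell, and SPRED1, which did not pass the threshold of the main fit at either time. Capitals mark GGAA and its reverse complement TTCC, the core that ETS factors read. The windows are chr12:89352502-89352751 (minus strand) for DUSP6, chr5:142324248-142324497 (minus strand) for SPRY4, chr4:123396545-123396794 (plus strand) for SPRY1 and chr15:38252586-38252835 (plus strand) for SPRED1, each written 5′ to 3′ on the strand of its gene.
DUSP6: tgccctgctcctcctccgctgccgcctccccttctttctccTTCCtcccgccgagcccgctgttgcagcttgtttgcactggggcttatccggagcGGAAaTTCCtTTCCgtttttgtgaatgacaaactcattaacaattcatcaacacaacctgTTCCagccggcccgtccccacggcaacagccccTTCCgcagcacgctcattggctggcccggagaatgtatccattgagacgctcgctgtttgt
SPRY4: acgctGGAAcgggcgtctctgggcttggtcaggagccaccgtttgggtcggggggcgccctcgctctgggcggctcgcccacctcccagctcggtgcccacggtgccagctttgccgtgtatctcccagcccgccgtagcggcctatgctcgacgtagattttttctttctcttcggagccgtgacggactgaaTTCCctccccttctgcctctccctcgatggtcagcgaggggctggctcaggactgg
SPRY1: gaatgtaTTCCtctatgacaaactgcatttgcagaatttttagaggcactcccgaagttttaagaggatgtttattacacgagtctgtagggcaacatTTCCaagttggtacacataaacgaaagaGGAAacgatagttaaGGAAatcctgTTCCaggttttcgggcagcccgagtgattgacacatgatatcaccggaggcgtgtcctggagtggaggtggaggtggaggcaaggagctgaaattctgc
SPRED1: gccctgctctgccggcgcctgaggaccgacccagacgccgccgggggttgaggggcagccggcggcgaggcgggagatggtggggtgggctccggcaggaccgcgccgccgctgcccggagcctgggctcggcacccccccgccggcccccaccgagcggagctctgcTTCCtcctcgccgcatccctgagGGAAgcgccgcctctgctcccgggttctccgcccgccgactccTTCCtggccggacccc

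Counted on both strands, the core occurred 6 times in the DUSP6 window, 5 times in the SPRY1 window, 3 times in the SPRED1 window and 2 times in the SPRY4 window. Over 35116 promoter windows of the same length the median was 3, 92.7% held the core, and 9.14% held it at least as often as DUSP6 did. Each window shown is that of the most upstream listed start of its gene. The windows not shown ran from 0 cores at DUSP7 to 5 at a start of SPRED3, with 4 at the other start of SPRY1. Whether the number of cores bears on the changes was not tested. The longer form CCGGAAG stood in 8.52% of all windows and in 1 of the 13 member windows, at a downstream start of SPRY1. The AP-1 site TGACTCA stood in 4.2% of all windows and in 1 member window, at SPRED3. TGACGTCA, found in 1.65% of all windows, and CACGTG, found in 6.34%, stood in none of the 13. These are matches of letters in a window and not measured sites.

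On GRCh37, the build of the files (hg19), with GENCODE v44lift37 annotation, DUSP4 lies at chr8:29190581-29208201 on the minus strand, DUSP5 at chr10:112257665-112271291 on the plus strand, DUSP6 at chr12:89741012-89746278 on the minus strand and DUSP7 at chr3:52082935-52090587 on the minus strand. The Sprouty genes lie apart from each other, SPRY1 at chr4:124317950-124324915 (plus), SPRY2 at chr13:80910111-80915261 (minus) and SPRY4 at chr5:141689992-141706020 (minus). SPRED1 lies at chr15:38545037-38649450 (plus), SPRED2 at chr2:65537985-65659771 (minus) and SPRED3 at chr19:38879061-38890227 (plus). Each is a protein-coding gene, and the values were estimated over its exons. DUSP6 was the sole member whose exons overlapped those of another annotated gene: an antisense long non-coding RNA covers 1105 bases, 28.6% of its exon bases. The library kit kept strand, but whether strand was used in counting is not stated in the sources used here, so reads of the antisense RNA cannot be told apart from those of DUSP6.

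In DMSO, the members covered a wide range of levels, and the order differed between the lines. In COLO858, SPRY4 was highest at 274 FPKM on average (SD 4.61, n = 2), followed by DUSP4 at 198, DUSP6 at 117, SPRY2 at 110, SPRY1 at 42.4, SPRED1 at 26.1, SPRED2 at 24.2, DUSP7 at 12.7, DUSP5 at 10.1 and SPRED3 at 2.52 FPKM. Neighbours whose libraries overlapped were DUSP6 with SPRY2 and SPRED1 with SPRED2. In MMACSF, DUSP4 came first at 82.0 FPKM (SD 2.75, n = 2), then SPRY2 at 47.0, DUSP6 at 40.7, SPRY4 at 35.8, SPRED2 at 22.1, SPRED1 at 19.7, DUSP7 at 6.04, SPRY1 at 4.81 and DUSP5 at 2.70 FPKM. Here SPRED2 and SPRED1 overlapped, and SPRED3 was listed at 0 in both DMSO libraries.

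**Figure D1:**
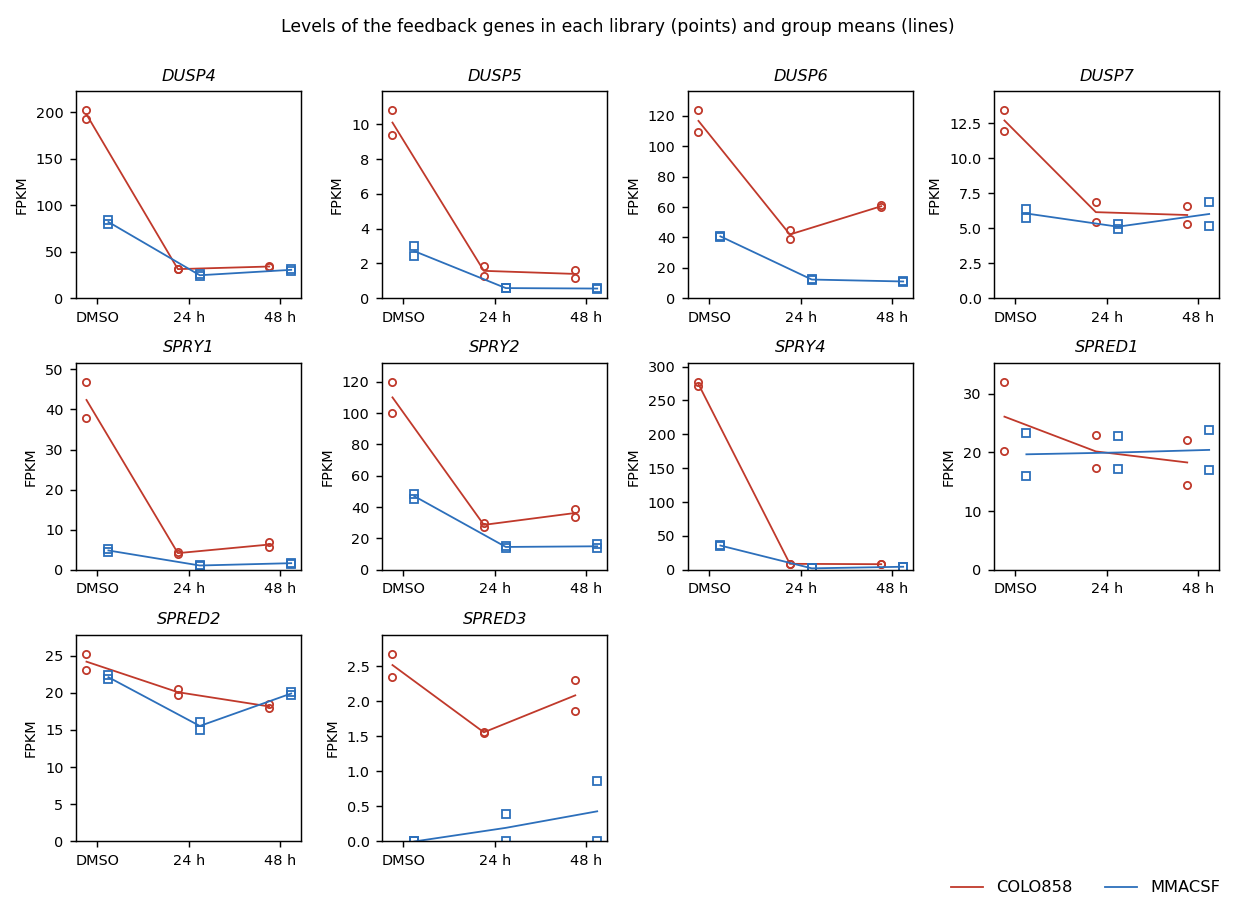
RNA level (FPKM, linear axes from 0, 1 panel a gene) of the 10 feedback genes in DMSO and after 24 h and 48 h of 0.2 μM vemurafenib; circles are single COLO858 libraries, squares single MMACSF libraries, and lines join the group means of 2. DUSP4, DUSP5, DUSP6 and the Sprouty genes dropped away from DMSO in both lines, whereas the SPRED genes kept 61.9% to 103.8% of their DMSO means where these were above 0.

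After vemurafenib, 6 of the 10 members were lower in COLO858 at 24 h and at 48 h, and 6 of the 9 tested were lower in MMACSF at both times: DUSP4, DUSP5, DUSP6, SPRY1, SPRY2 and SPRY4. No member passed the threshold upwards. Among all genes tested in COLO858, 5.71% were lower and 4.11% higher at 24 h, and 4.73% lower and 4.74% higher at 48 h. In MMACSF, 3.60% were lower and 2.22% higher at 24 h, and 5.41% lower and 3.42% higher at 48 h. The median change of the members was -1.68 and -1.28 on the log2 scale in COLO858 at 24 h and 48 h, where the median of all genes was 0.06 and -0.01. In MMACSF it was -1.49 and -1.25 over the 9 members tested, against 0.07 and 0.06 for all genes. SPRED3 entered no MMACSF comparison, so these 9 are not all of the members.

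DUSP4 carried most of the DUSP signal in untreated cells. In COLO858 its level was 193 and 202 FPKM in the DMSO libraries, 31.3 and 31.1 FPKM at 24 h, and 33.0 and 35.0 FPKM at 48 h. The drug-treated libraries lay far below DMSO, at 15.8% of its mean at 24 h and 17.2% at 48 h (log2 fold change -2.63 and -2.51, SE 0.12, adjusted p = 0.000602 and 0.000523). In MMACSF it went from 80.1 and 83.9 FPKM in DMSO to 23.6 and 25.6 FPKM at 24 h and 29.1 and 31.8 FPKM at 48 h. The MMACSF groups did not overlap either, but 30.0% of the DMSO mean was left at 24 h and 37.1% at 48 h (log2 fold change -1.70 and -1.40, SE 0.12, adjusted p = 0.00181 and 0.00191).

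DUSP6, the cytoplasmic ERK phosphatase, fell in both lines, and its 24 h and 48 h libraries stood in a different order in each. Its change from 24 h to 48 h did not pass the threshold by limma in COLO858 (adjusted p = 0.110) or in MMACSF (adjusted p = 0.930). COLO858 had 110 and 124 FPKM in DMSO, 45.1 and 38.7 FPKM at 24 h, and 60.04 and 61.03 FPKM at 48 h. Both 48 h libraries lay between the 24 h and the DMSO libraries, with 35.9% of the DMSO mean at 24 h and 51.8% at 48 h (log2 fold change -1.46 and -0.93, SE 0.14, adjusted p = 0.00286 and 0.00970). MMACSF had 40.4 and 40.9 FPKM in DMSO, 11.7 and 12.7 FPKM at 24 h, and 10.8 and 11.1 FPKM at 48 h. There, the 48 h libraries were the lowest, and the share of the DMSO mean was 30.0% and then 26.9% (log2 fold change -1.66 and -1.80, SE 0.12, adjusted p = 0.00183 and 0.000981). The COLO858 fall at 48 h stood close to the threshold. It missed it with a pseudocount of 0.1 FPKM, no minimum level, rescaling or no variance trend (adjusted p from 0.0103 to 0.0116) and with only the libraries compared (0.0220), and passed with a pseudocount of 0.01 FPKM or a minimum of 10 FPKM.

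DUSP5, the nuclear ERK phosphatase, was expressed at low levels. In COLO858, levels of 10.8 and 9.39 FPKM in DMSO became 1.85 and 1.29 FPKM at 24 h and 1.61 and 1.17 FPKM at 48 h. Every drug-treated library was far below both DMSO libraries (log2 fold change -2.12 and -2.22, SE 0.19, adjusted p = 0.00238 and 0.00217). In MMACSF the same gene went from 2.998 and 2.401 FPKM to 0.554 and 0.593 FPKM at 24 h and 0.530 and 0.565 FPKM at 48 h (log2 fold change -1.23 and -1.25, SE 0.16, adjusted p = 0.00804 and 0.00618). Because 1 FPKM was added before taking logs, these values understate the change of so low a gene: the DMSO mean was 4.70 times the 24 h mean and 4.93 times the 48 h mean in MMACSF.

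DUSP7, the closest relative of DUSP6 in the set, did not pass the test in either line when the fit held no term for the replicate number. With that term it passed in COLO858 at 24 h and 48 h (limma adjusted p = 0.000735 and 0.000676), where 5719 and 5549 of 12696 genes did. COLO858 had 13.42 and 11.95 FPKM in DMSO, 6.84 and 5.44 FPKM at 24 h, and 6.56 and 5.31 FPKM at 48 h. The groups did not overlap, and 48.4% and 46.8% of the DMSO mean was left (log2 fold change -0.94 and -0.98, SE 0.18, adjusted p = 0.0189 and 0.0166). MMACSF had 6.36 and 5.72 FPKM in DMSO, 5.27 and 4.93 FPKM at 24 h and 5.16 and 6.86 FPKM at 48 h, with the 48 h libraries on either side of DMSO (log2 fold change -0.21 and -0.02, SE 0.17, adjusted p = 0.437 and 0.957).

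SPRY4, a Sprouty protein known as an early target of ERK signalling, showed the largest fall of all members in both lines. In COLO858, 271 and 277 FPKM in DMSO became 8.58 and 8.92 FPKM at 24 h and 8.34 and 8.12 FPKM at 48 h. This left 3.191% and 3.002% of the DMSO mean (log2 fold change -4.82 and -4.90, SE 0.12, adjusted p = 0.000209 and 0.000137), and SPRY4 stood at position 20 among the falls of all 12696 genes at each time. In MMACSF, 35.1 and 36.4 FPKM in DMSO became 1.92 and 2.28 FPKM at 24 h and 4.26 and 4.64 FPKM at 48 h. The fall there left 5.87% and then 12.4% of the DMSO mean (log2 fold change -3.57 and -2.76, SE 0.14, adjusted p = 0.000503 and 0.000504), at positions 70 and 170 of 12599.

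SPRY1 and SPRY2 fell as well, SPRY1 by more in COLO858. For SPRY1, COLO858 had 37.9 and 46.9 FPKM in DMSO, 3.91 and 4.39 FPKM at 24 h, and 5.57 and 7.02 FPKM at 48 h. At most 14.9% of the DMSO mean was left (log2 fold change -3.07 and -2.57, SE 0.18, adjusted p = 0.000927 and 0.00134). MMACSF expressed it weakly, at 4.46 and 5.17 FPKM in DMSO, 1.16 and 0.964 FPKM at 24 h, and 1.51 and 1.78 FPKM at 48 h (log2 fold change -1.49 and -1.14, SE 0.16, adjusted p = 0.00493 and 0.00812). All drug-treated libraries of both lines were below DMSO, and with a pseudocount of 0.1 FPKM the adjusted p of SPRY1 in MMACSF at 48 h was 0.0103.

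SPRY2, which like SPRY4 acts between receptors and RAF, kept a like share of its DMSO level in both lines. COLO858 had 100.2 and 119.9 FPKM in DMSO, 27.3 and 30.0 FPKM at 24 h and 33.7 and 38.8 FPKM at 48 h. MMACSF had 45.5 and 48.4 FPKM in DMSO, 14.2 and 14.9 FPKM at 24 h, and 13.6 and 16.3 FPKM at 48 h. The share left at 48 h was 32.9% in COLO858 and 31.9% in MMACSF. The log2 fold change was -1.90 and -1.57 in COLO858 (SE 0.16, adjusted p = 0.00193 and 0.00333) and -1.62 and -1.59 in MMACSF (SE 0.14, adjusted p = 0.00256 and 0.00208).

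The SPRED genes did not pass the threshold in any comparison with DMSO when the fit held no term for the replicate number. With that term, SPRED1 and SPRED2 passed in COLO858 at 48 h (limma adjusted p = 0.00784 and 0.00689), where 5549 of 12696 genes did. SPRED2 also passed in MMACSF at 24 h (0.00487), where 3284 of 12599 genes did. The labels do not pair the plates. Without the term, an unadjusted p under 0.05 from limma was found for SPRED3 in COLO858 at 24 h and SPRED2 at 48 h. In MMACSF it was found for SPRED2 at 24 h and for none at 48 h. The share of all genes with such a p was not counted. SPRED1 measured 20.2 and 32.0 FPKM in COLO858 DMSO, 17.4 and 23.0 FPKM at 24 h, and 14.5 and 22.1 FPKM at 48 h. The groups overlapped (log2 fold change -0.33 and -0.48, SE 0.31, adjusted p = 0.470 and 0.311). In MMACSF the gene measured 16.0 and 23.4 FPKM in DMSO, 17.1 and 22.9 FPKM at 24 h, and 17.0 and 23.9 FPKM at 48 h (log2 fold change 0.03 and 0.06, SE 0.27, adjusted p = 0.949 and 0.898). In all 6 groups replicate 2 exceeded replicate 1, by 1.32 to 1.59 times. The libraries numbered 2 also had the larger share of FPKM in a single small RNA gene, MIR4461, at 25.8% to 43.4% against 14.1% to 19.0%, and whether the pattern of SPRED1 is related to that was not tested.

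SPRED2 was steadier between replicates. COLO858 had 23.1 and 25.3 FPKM in DMSO, 20.5 and 19.7 FPKM at 24 h, and 17.9 and 18.4 FPKM at 48 h, with groups that did not overlap (log2 fold change -0.26 and -0.39, SE 0.13, adjusted p = 0.200 and 0.0801). MMACSF had 21.8 and 22.4 FPKM in DMSO, 15.0 and 16.0 FPKM at 24 h, and 19.7 and 20.1 FPKM at 48 h (log2 fold change -0.48 and -0.14, SE 0.11, adjusted p = 0.0388 and 0.400). SPRED3 was scarce throughout, at 2.68 and 2.35 FPKM in COLO858 DMSO, 1.56 and 1.55 FPKM at 24 h, and 1.86 and 2.31 FPKM at 48 h (log2 fold change -0.46 and -0.19, SE 0.15, adjusted p = 0.0779 and 0.395). In MMACSF it was listed at 0 in 4 of 6 libraries, and at 0.388 and 0.860 FPKM in replicate 1 at 24 h and at 48 h.

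**Figure D2:**
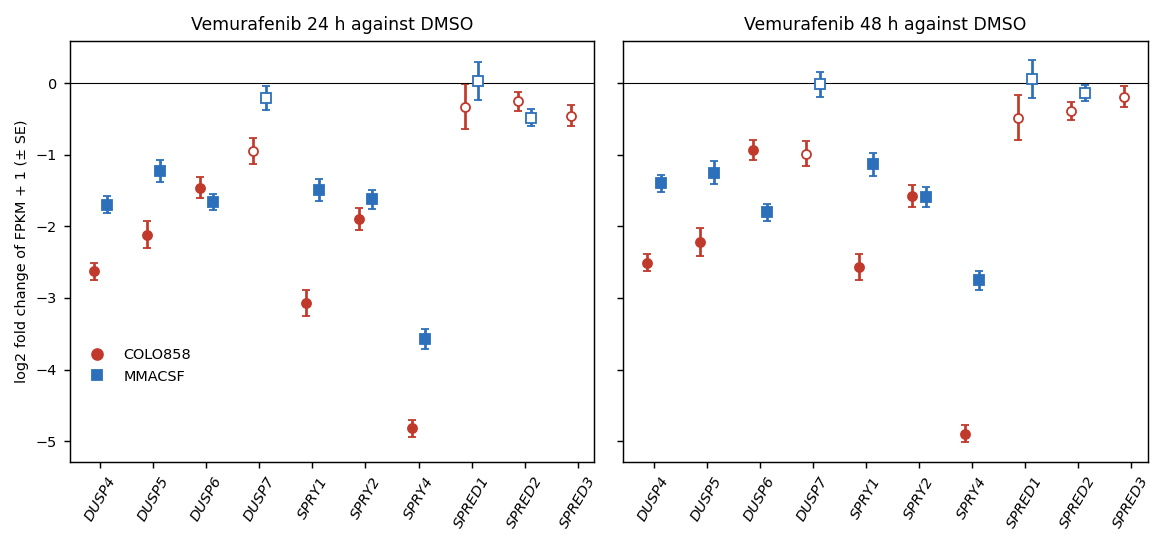
Log2 fold change of FPKM + 1 against DMSO (y axis, ± SE) for each feedback gene after 24 h (left) and 48 h (right) of vemurafenib; circles are COLO858, squares MMACSF, and filled symbols passed an adjusted p of 0.01. SPRY4 lies lowest in both lines, at -4.82 and -4.90 in COLO858, and no SPRED gene or DUSP7 symbol is filled.

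Calls depended on single libraries more than fold changes did, which moved by at most 0.16 on the log2 scale for the 6 genes called. With 2 libraries a group, leaving out 1 of the 4 compared left 1 library in an arm, assumed to vary like the rest. In COLO858, SPRY4 stayed past the threshold without each of them at both times, and so did DUSP4 at 48 h. DUSP4 at 24 h missed it without 24 h replicate 2 (adjusted p = 0.0101). DUSP5, DUSP6, SPRY1 and SPRY2 missed it without each of DMSO replicates 1 and 2 and the drug replicates 1 and 2, at 24 h (highest adjusted p = 0.0255) and at 48 h (highest 0.0615). In MMACSF at 24 h, SPRY4 stayed and the other 5 missed it without each of the same 4 libraries (highest 0.0383), and at 48 h all 6 did (highest 0.0564). Over all genes, calls dropped from 1247 to between 66 and 92 in COLO858 at 24 h, from 1202 to between 111 and 138 at 48 h, and in MMACSF from 734 to between 45 and 70 and from 1113 to between 85 and 125. The sign of the change was the same in each of these fits for the 6 genes. With only the 4 libraries compared in the fit, SPRY4 alone passed in MMACSF at 24 h, and DUSP6 at 24 h and SPRY2 at 48 h missed the threshold in COLO858 (adjusted p = 0.0109 and 0.0130). In MMACSF at 48 h, DUSP5 and SPRY1 missed it in that fit (0.0127 and 0.0176). DUSP5 missed it in COLO858 when tested among genes with a group mean of 10 FPKM (adjusted p = 0.0188 at 24 h and 0.0163 at 48 h) and in MMACSF at 24 h with a pseudocount of 0.1 FPKM (0.0127).

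Summed by family, the DUSP genes measured 327 and 348 FPKM in the COLO858 DMSO libraries, 85.2 and 76.5 FPKM at 24 h and 101 and 103 FPKM at 48 h. The Sprouty sum was 409 and 444 FPKM in DMSO, 39.8 and 43.3 FPKM at 24 h and 47.6 and 54.0 FPKM at 48 h. The Sprouty genes together thus kept 9.74% and 11.9% of their DMSO mean, the DUSP genes 23.9% and 30.2%, and the SPRED genes 79.2% and 73.0%. In MMACSF the corresponding shares were 20.3% and 24.1% for Sprouty, 32.3% and 36.5% for DUSP, and 85.5% and 97.6% for SPRED. These sums are descriptions of the members chosen and were not tested.

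The make-up of the families changed with the drug. SPRY4 made up 64.3% of the Sprouty sum in COLO858 DMSO, 21.0% at 24 h and 16.2% at 48 h, while SPRY2 went from 25.8% to 69.0% and 71.4%. In MMACSF, where SPRY2 already led in DMSO with 53.6%, SPRY4 went from 40.9% to 11.8% and 21.1%. Among the DUSP genes, DUSP4 led in COLO858 DMSO with 58.6% against 34.6% for DUSP6, and the order was turned at 24 h, with 38.6% for DUSP4 and 51.9% for DUSP6, and at 48 h, with 33.4% and 59.4%. In MMACSF, DUSP4 led in all 6 libraries, with 63.5% of the sum at 48 h against 22.8% for DUSP6. At 48 h the highest member was therefore DUSP6 in COLO858, at 60.5 FPKM, and DUSP4 in MMACSF, at 30.4 FPKM.

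The response was compared between the lines by testing the difference of the changes, COLO858 minus MMACSF, over all 12 libraries and 13595 genes. At 24 h, 3 of 10 members differed past the threshold, where 3.71% of all genes did and 1.93% in the direction of these 3: DUSP4 (difference -0.93, SE 0.13, adjusted p = 0.00427), SPRY1 (-1.57, SE 0.22, adjusted p = 0.00427) and SPRY4 (-1.25, SE 0.14, adjusted p = 0.00164). All of them fell further in COLO858. At 48 h, 4 of 10 differed, against 7.48% of all genes (3.30% lower and 4.19% higher in COLO858 relative to MMACSF): DUSP4 (-1.11, SE 0.13, adjusted p = 0.00100), SPRY1 (-1.44, SE 0.22, adjusted p = 0.00367) and SPRY4 (-2.14, SE 0.14, adjusted p = 5.33e-05) fell further in COLO858. DUSP6 differed in the opposite direction (0.87, SE 0.15, adjusted p = 0.00686), with the larger fall in MMACSF. At 24 h the DUSP6 difference was 0.20 (SE 0.15, adjusted p = 0.543).

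Among the other members, SPRY2 differed by -0.28 at 24 h and 0.02 at 48 h (SE 0.19, adjusted p = 0.494 and 0.979). DUSP5 differed by -0.89 and -0.97 (SE 0.22, adjusted p = 0.0439 and 0.0208), and DUSP7 by -0.74 and -0.97 (SE 0.24, adjusted p = 0.105 and 0.0277). The differences of SPRED1, SPRED2 and SPRED3 lay between -0.69 and 0.23, and their adjusted p-values between 0.276 and 0.753. Under alternative settings the DUSP5 difference was as small as -0.49 at 24 h and -0.60 at 48 h (limma adjusted p up to 0.557 and 0.374). On this scale the difference of a gene as low in MMACSF as SPRY1 or DUSP5 depends on the pseudocount. With 0.1 FPKM, the 24 h difference was -1.24 for SPRY1 (adjusted p = 0.0311) and -0.92 for SPRY4 (adjusted p = 0.0149), and the 48 h difference of SPRY1 was -1.24 (adjusted p = 0.0185), all short of the threshold.

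Leaving out each of the 8 libraries of a comparison in turn kept the 48 h differences of SPRY4 (adjusted p at most 0.000608) and DUSP4 (at most 0.00608). The 24 h difference of SPRY4 missed the threshold without MMACSF DMSO replicate 1 alone (adjusted p = 0.0104). The 24 h difference of DUSP4 and the 48 h difference of DUSP6 missed it without each of the 8 (highest adjusted p = 0.0207 and 0.0297). SPRY1 held at 24 h without COLO858 DMSO replicate 1 and at 48 h without that library or COLO858 48 h replicate 2, and missed it without each of the others (highest 0.0207 at 24 h and 0.0191 at 48 h). With the libraries of the other drug time left out of the fit, the differences of DUSP4 and SPRY4 at 48 h passed and the other 5 at 24 h or 48 h did not (adjusted p from 0.0114 to 0.0181).

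**Figure D3:**
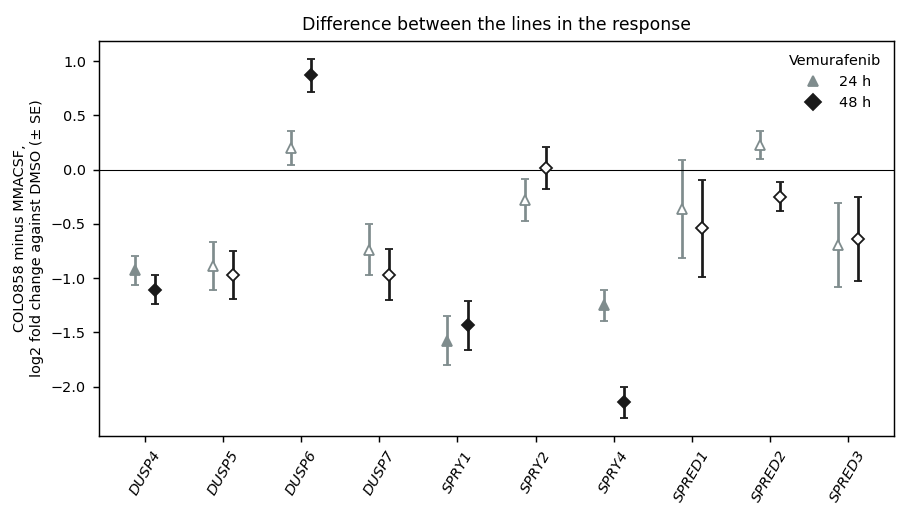
Difference between the lines in the response to vemurafenib (y axis, COLO858 log2 fold change minus MMACSF log2 fold change, ± SE) for each feedback gene at 24 h (triangles) and 48 h (diamonds); filled symbols passed an adjusted p of 0.01. SPRY4 has the most negative value at 48 h, -2.14, and DUSP6 at 48 h is the filled symbol above 0, at 0.87.

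Between 24 h and 48 h of drug, no member passed the threshold in either line, where 1.38% of all genes did in COLO858 and 0.222% in MMACSF by the same limma test. With limma, at an unadjusted p under 0.05 there were 2 members in COLO858, DUSP6 (log2 fold change 0.52, SE 0.14, adjusted p = 0.110) and SPRY1 (0.50, SE 0.18, adjusted p = 0.220). In MMACSF there were 3: SPRY4 (0.81, SE 0.14, adjusted p = 0.167), DUSP4 (0.30, SE 0.12, adjusted p = 0.700) and SPRED2 (0.34, SE 0.11, adjusted p = 0.595). In each case both 48 h libraries lay above both 24 h libraries. How many of all genes had such an order or such an unadjusted p was not counted, so these counts have no background beside them. SPRY4 in MMACSF measured 2.12 times as much at 48 h as at 24 h, which was 6.97% of what had been lost from DMSO, and DUSP6 in COLO858 measured 1.44 times as much, or 24.9% of the loss. The change from 24 h to 48 h differed between the lines for SPRY4 (difference -0.89, SE 0.14, adjusted p = 0.00834), 1 of 10 members, where 2.96% of all genes differed and 0.508% in its direction (2.46% in the other). That call was missed without each of the 8 libraries in turn (adjusted p from 0.0147 to 0.0402). For DUSP6 the difference was 0.67 (SE 0.15, adjusted p = 0.0400).

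The genes with the course most like that of a member were sought over 11691 genes and 12 libraries, by the root mean square difference between log2 values centred on the DMSO mean of each line. Nearest to DUSP6, where the median gene stood at 1.31, were FDPS (0.135), RELT (0.173) and MME (0.174). FDPS encodes farnesyl diphosphate synthase of the mevalonate pathway, RELT a receptor of the tumour necrosis factor receptor family, and MME the membrane peptidase neprilysin. RELT and MME were low, and the 1 FPKM added before taking logs understates their changes, so their likeness to DUSP6 holds on this scale. In COLO858 from DMSO to 24 h, the mean of RELT went from 3.63 to 0.804 FPKM and that of MME from 4.86 to 0.757 FPKM. SPRY4 had no such close neighbour on this scale: SPATS1 stood at 0.719, PHLDA2, an imprinted gene, at 0.902 and GJB1, a gap junction protein, at 1.098, against a median of 3.41. In COLO858 at 48 h the mean was 0.0483 FPKM for SPATS1 and 0.352 FPKM for GJB1. That of PHLDA2 in MMACSF at 48 h was 0.593 FPKM. The 1 FPKM added therefore weighs on these distances as well. Nearest to SPRED1 were CCNT1 (cyclin T1), UBE3A (a ubiquitin ligase) and CNOT7 (a deadenylase subunit), at 0.0706, 0.0831 and 0.0895, against a median of 0.531. Distances were taken over single libraries, so differences between replicates entered them too. SPRED1 differed between replicates in every group, while its MMACSF log2 fold changes were 0.03 and 0.06. Its neighbours are therefore alike in replicate differences as well, and a like response to the drug was not tested. Among the members themselves the closest pairs were DUSP4 with SPRY1 (0.245), SPRED1 with SPRED2 (0.326), DUSP4 with DUSP5 (0.337) and DUSP6 with SPRY2 (0.343).

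The other typical MAP kinase phosphatases did not follow the members as a group. None of the 6 passed the threshold in COLO858 at 24 h, where 9.82% of all genes did, nor 1 of the 5 tested in MMACSF, where 5.83% did. By the same limma test, 2 in COLO858 and 3 in MMACSF had an unadjusted p under 0.05 at 24 h, counts with no share of all genes beside them. At 48 h the calls were 2 of 6 in COLO858, against 9.47% of all genes, and 1 of 5 in MMACSF, against 8.83%. DUSP8, a phosphatase that acts mainly on JNK and p38, rose in COLO858 from 0.338 and 0.263 FPKM in DMSO to 1.97 and 1.00 FPKM at 24 h and 7.22 and 5.55 FPKM at 48 h (log2 fold change at 48 h 2.50, SE 0.24, adjusted p = 0.00302). DUSP9, an ERK phosphatase related to DUSP6, fell in COLO858 from 10.6 and 7.08 FPKM to 6.57 and 3.69 FPKM at 24 h and 1.49 and 1.04 FPKM at 48 h (log2 fold change at 48 h -2.10, SE 0.31, adjusted p = 0.00924).

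In MMACSF, DUSP10, which acts on JNK and p38, fell from 22.6 and 26.9 FPKM in DMSO to 10.8 and 11.2 FPKM at 24 h and 8.10 and 10.2 FPKM at 48 h (log2 fold change at 48 h -1.34, SE 0.16, adjusted p = 0.00558). In COLO858 it measured 12.1 and 15.4 FPKM in DMSO, 20.7 and 23.2 FPKM at 24 h, and 8.88 and 13.2 FPKM at 48 h, and the 24 h changes differed between the lines (difference 1.74, SE 0.29, adjusted p = 0.00815), a result chosen for mention after its values were seen. It was missed without each of the 8 libraries (adjusted p from 0.0170 to 0.0376). The responses at 48 h differed between the lines for DUSP8 (1.91, SE 0.29, adjusted p = 0.00345) and DUSP9 (-2.94, SE 0.42, adjusted p = 0.00234). DUSP16, chosen for mention after its values were seen, measured 5.24 and 7.41 FPKM in COLO858 DMSO and 14.5 and 17.9 FPKM at 48 h (adjusted p = 0.0148). The 48 h calls of DUSP8, DUSP9 and DUSP10 were missed without each of the 4 libraries compared, with adjusted p up to 0.0270, 0.0598 and 0.0492, and the DUSP9 fall was also missed with no minimum level, after rescaling and with only the libraries compared. The 48 h differences of DUSP8 and DUSP9 reached adjusted p of 0.0172 and 0.0132 when single libraries were left out.

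**Figure D4:**
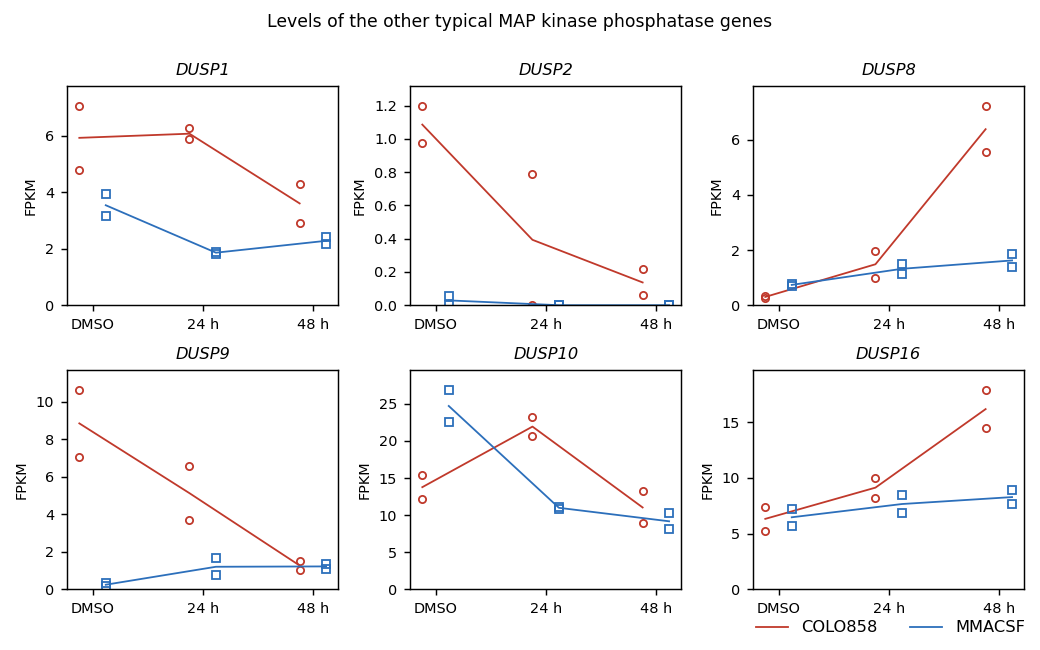
RNA level (FPKM, linear axes from 0) of the 6 other typical MAP kinase phosphatase genes in DMSO and after 24 h and 48 h of vemurafenib; circles are COLO858 libraries, squares MMACSF libraries, lines join group means. In COLO858, DUSP8 climbs to 7.22 and 5.55 FPKM at 48 h while DUSP9 drops to 1.49 and 1.04 FPKM, and the MMACSF libraries stay at or below 1.85 FPKM for DUSP8 and 1.66 FPKM for DUSP9.

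Other brakes on the route from receptors to ERK were called at a share near that of all genes in COLO858, where 9.82% were called at 24 h and 9.47% at 48 h. Of 10 listed, 9 were tested in COLO858 and 8 in MMACSF, and ERRFI1, which encodes an inhibitor of the EGF receptor, was the single call at 24 h and at 48 h, in COLO858. None of the 8 passed in MMACSF, against 5.83% and 8.83% of all genes, and 2 had an unadjusted p under 0.05 from limma at each time. ERRFI1 measured 30.7 and 41.1 FPKM in COLO858 DMSO, 9.06 and 10.0 FPKM at 24 h, and 6.93 and 9.15 FPKM at 48 h (log2 fold change at 48 h -2.03, SE 0.21, adjusted p = 0.00380). In MMACSF it lay between 1.91 and 3.77 FPKM in all 6 libraries, and the 48 h responses differed (-1.93, SE 0.35, adjusted p = 0.00730). Both ERRFI1 calls at 48 h were missed without each library compared (adjusted p up to 0.0294 and 0.0315). SPRY3, the remaining Sprouty gene, was listed at 0 in all 12 libraries. No gene of the core of the pathway, 11 genes from RAS to ERK, passed the threshold in either line at 24 h or 48 h, beside the same shares of all genes. By limma, 3 and 4 of them in COLO858 and 4 and 1 in MMACSF had an unadjusted p under 0.05 at 24 h and 48 h. The share of all genes with such a p was not counted, so the counts at this p have no background beside them.

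Genes that ERK output is known to raise were lower as well. Of 12 listed, 5 of the 10 tested in COLO858 were lower at 24 h and 7 at 48 h, and 7 and 9 of the 11 tested in MMACSF, with none higher. Of all genes, 5.71% and 4.73% were lower in COLO858 and 3.60% and 5.41% in MMACSF. ETV4, an ETS factor, fell most at 48 h in both lines, from 196 and 150 FPKM to 2.99 and 2.38 FPKM in COLO858 (log2 fold change -5.55, SE 0.20, adjusted p = 0.000262) and from 101 and 79.4 FPKM to 1.75 and 1.28 FPKM in MMACSF (-5.17, SE 0.18, adjusted p = 0.000345). Next came EGR1, an immediate early factor, in COLO858 (-2.90, SE 0.14, adjusted p = 0.000552) and FOSL1, an AP-1 component, in MMACSF (-3.59, SE 0.16, adjusted p = 0.000418). The median 48 h change of this list was -1.72 in COLO858 and -2.04 in MMACSF, beside -1.28 and -1.25 for the members.

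**Figure D5:**
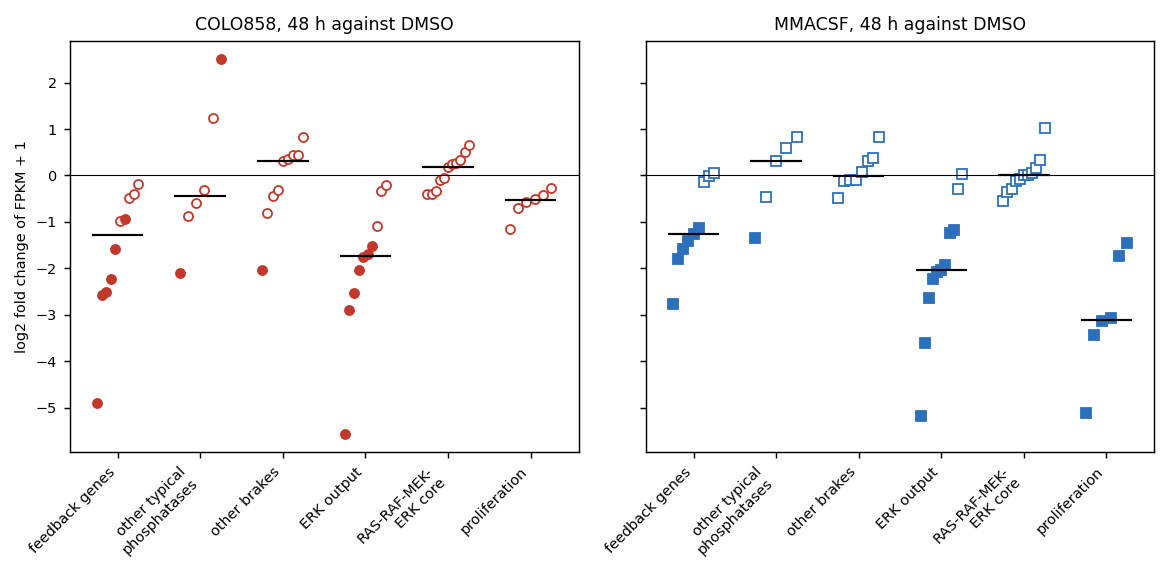
Log2 fold change of FPKM + 1 at 48 h against DMSO (y axis) in COLO858 (left) and MMACSF (right) for the tested genes of each list (x axis); each symbol is a gene, filled symbols passed an adjusted p of 0.01, and black lines are list medians. The medians of the feedback genes and of the ERK output genes lie below 0 in both lines, the RAS to ERK core lies around 0 with no filled symbol, and the proliferation genes are all filled in MMACSF and none in COLO858.

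Growth state changed alongside. All 6 proliferation genes examined were lower at 24 h in COLO858, against 5.71% of all genes, and in MMACSF at 24 h and 48 h, against 3.60% and 5.41%. In MMACSF at 48 h, TOP2A (log2 fold change -5.10, SE 0.21, adjusted p = 0.000376) and MKI67 (-3.44, SE 0.16, adjusted p = 0.000428) fell most. In COLO858 none of the 6 passed at 48 h by limma, where 9.47% of all genes did. All 6 changes were still negative there (median -0.54), and 3 had an unadjusted p under 0.05 by limma, a count with no share of all genes beside it. The part of growth state in the members' changes was not tested. In these bulk samples, fewer cells expressing a gene and less RNA per cell cannot be told apart.

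The melanoma label was checked against markers. SOX10, MITF and PMEL were above 50 FPKM in every library of both lines. MLANA, at 1044 FPKM on average in MMACSF DMSO, was at 0.432 FPKM in COLO858 DMSO and below 1 FPKM at both drug times, and TYR, at least 178 FPKM in every MMACSF library, was at 0.282 to 1.21 FPKM in COLO858, so these pigment cell markers were near absent from COLO858. The summed level of the 7 markers went from 699 to 715 FPKM in COLO858 DMSO to 3910 to 4142 FPKM at 24 h and 4132 to 4134 FPKM at 48 h, and in MMACSF from 11158 to 11371 FPKM to 15584 to 16770 FPKM and 16826 to 17549 FPKM. Of these markers, 3 of the 6 tested in COLO858 and 3 of the 7 tested in MMACSF were higher at 48 h. Among all genes 4.74% and 3.42% were. Those in COLO858 were led by S100B (3.16, SE 0.10, adjusted p = 0.000262) and DCT (3.01, SE 0.11, adjusted p = 0.000305). Those in MMACSF were led by DCT (1.17, SE 0.13, adjusted p = 0.00442) and MLANA (1.04, SE 0.15, adjusted p = 0.00874), and both calls were lost without each of the 4 libraries. Short of the threshold, 2 markers in COLO858 and 1 in MMACSF had a negative change. S100B was lower in both 48 h libraries of MMACSF than in its DMSO libraries, and TYR in those of COLO858. The 5 markers of blood, epithelial, fibroblast and endothelial cells summed to at most 0.726 FPKM in COLO858 and 3.61 FPKM in MMACSF, where most of it was DCN, and PTPRC, the blood cell marker, was at most 0.242 FPKM. Their part in the members' changes was not tested. The libraries summed to between 670310 and 1013038 FPKM, their read depth is unknown, and replicates differed by a median of 0.213 to 0.292 on the log2 scale.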

How the data were processed

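RNA was sequenced from 12 libraries of COLO858 and MMACSF cells, 2 a group, made with a stranded mRNA kit and read as single reads. Per the labels, the authors aligned reads with TopHat to hg19 and made the FPKM values with Cuffdiff (versions not given in the sources used here). They deposited 1 table of FPKM per line, with 23273 gene rows. All 12 columns were used. FPKM are not counts, so no count model was fitted, read depth is unknown and no counting interval could be given.

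Values were analysed as log2(FPKM + 1) with limma 3.58.1 in R 4.3.3, over the 6 libraries of a line (3 groups), with empirical Bayes moderation that let the variance follow the mean. A gene entered if any group averaged 1 FPKM or more, and was tested two-sided, with Benjamini-Hochberg adjustment over all of them and a threshold of 0.01, the study's cutoff. Differences between lines were interaction contrasts over 12 libraries. The code was tested on simulated data. The share of all genes at an unadjusted p under 0.05, or with groups that did not overlap, was not counted. Replicates were separate plates of the same cell line, so p-values measure the spread between plates. The members and gene lists were chosen with earlier results of these data known. All members were named, and in each other list up to 2 genes with the largest rise and 2 with the largest fall past the threshold at 48 h. Alternatives covered the pseudocount, the minimum level, scaling, the variance model, the libraries fitted, a replicate block and leaving out each library. Promoter windows came from RefSeq (GRCh38.p14), gene positions from GENCODE v44lift37, and DUSP4 and DUSP5 had no promoter entry.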

Additional observations from a re-analysis of the deposited data

Results flagged for a closer look

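These 12 results come from the members and from DUSP8, DUSP9, DUSP10 and ERRFI1, and are not all that passed. They are listed because the response to vemurafenib differed between COLO858 and MMACSF by the interaction test of limma, at an adjusted p under 0.01. Values are COLO858 minus MMACSF log2 fold changes, and no explanation was tested. Of all genes, 3.71% differed at 24 h, 7.48% at 48 h and 2.96% for 48 h minus 24 h. Genes of the other lists also passed, among them 5 of 6 proliferation genes at 48 h. Among the members at 24 h the difference was -0.93 for DUSP4, -1.57 for SPRY1 and -1.25 for SPRY4. At 48 h it was -1.11 for DUSP4, -1.44 for SPRY1 and -2.14 for SPRY4, all with the larger fall in COLO858, and 0.87 for DUSP6, with the larger fall in MMACSF. The change from 24 h to 48 h differed by -0.89 for SPRY4, whose mean went from 2.10 to 4.45 FPKM in MMACSF and from 8.75 to 8.23 FPKM in COLO858, neither passing the threshold within its line. Among the other genes the difference was 1.74 for DUSP10 at 24 h, and at 48 h 1.91 for DUSP8, -2.94 for DUSP9 and -1.93 for ERRFI1.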

How the results depend on the processing

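The sign of every called member change was the same under all alternatives. Read depth is unknown, and 2 libraries a group limit the precision. Leaving out 1 library of the groups compared gave 66 to 92 calls over all genes in COLO858 at 24 h (1247 with all), 111 to 138 at 48 h (1202) and 29 to 39 for 48 h against 24 h (175). In MMACSF it gave 45 to 70 (734), 85 to 125 (1113) and 22 to 43 (28), and for the differences between the lines 216 to 288 at 24 h (505), 568 to 710 at 48 h (1017) and 187 to 258 for 48 h minus 24 h (403). Members past the threshold then numbered 1 to 2 in COLO858 at 24 h and 2 at 48 h, 1 and 0 in MMACSF, and 0 to 2, 2 to 3 and 0 for the differences. These fits leave 1 library in an arm.

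Fitting only the libraries compared gave 477, 380 and 13 calls in COLO858 (24 h, 48 h, 48 h against 24 h), 59, 364 and 14 in MMACSF and 208, 666 and 203 for the differences, with 1 member in MMACSF at 24 h and 0, 2 and 0 for the differences. A minimum of 10 FPKM gave 831 and 779 calls in COLO858 and 275 for the 24 h difference. For COLO858 48 h against 24 h, no minimum gave 86 and median-ratio rescaling 263. The 24 h difference had 336 calls with a pseudocount of 0.1 FPKM and 310 with 0.01 FPKM, with 1 member in each. The cause was not tested.

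The replicate numbers are shared by 2 plates a group, and nothing in the labels pairs them. Deviations of same-numbered libraries correlated across genes at 0.196 to 0.211 in COLO858 and 0.0628 to 0.113 in MMACSF. With the replicate block, calls numbered 5719, 5549 and 2280 of 12696 genes in COLO858. In MMACSF they numbered 3284 and 3790 of 12599 at 24 h and 48 h, and for the differences 2396, 3434 and 1774 of 13595. Beside these, 1 of 10 members passed for COLO858 48 h against 24 h (SPRY1). For the 48 h and the 48 h minus 24 h differences 7 and 2 of 10 did. No member call was lost under the block. Calls against DMSO gained under it were DUSP7 in COLO858 at 24 h (adjusted p = 0.000735) and 48 h (0.000676), SPRED1 (0.00784) and SPRED2 (0.00689) in COLO858 at 48 h, and SPRED2 in MMACSF at 24 h (0.00487). Differences gained were DUSP5 at 24 h (0.00475) and 48 h (0.00247), DUSP7 (0.00620) and SPRED1 (0.00760) at 48 h, and SPRED2 for 48 h minus 24 h (0.00730).

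Signs turned for values short of the threshold. Rescaling gave 0.020 for DUSP7 in COLO858, 48 h against 24 h, and -0.045 for SPRED1 in MMACSF at 24 h. For the 48 h minus 24 h difference, a pseudocount of 0.1 FPKM gave -0.10 for SPRED3 and -0.0024 for SPRY1, and 0.01 FPKM gave -0.15 and -0.032. Without single libraries, COLO858 48 h against 24 h ran from -0.26 to 0.056 for DUSP5, -0.18 to 0.10 for DUSP7 and -0.44 to 0.14 for SPRED1. In MMACSF, SPRED1 ran from -0.23 to 0.29 at 24 h, -0.21 to 0.32 at 48 h and -0.21 to 0.26 for 48 h against 24 h, DUSP7 from -0.19 to 0.16 at 48 h, and SPRY2 from -0.089 to 0.16 for 48 h against 24 h. The 48 h difference of SPRY2 ran from -0.11 to 0.14, and the 48 h minus 24 h difference from -0.23 to 0.080 for DUSP5, -0.47 to 0.11 for SPRED1, -0.39 to 0.50 for SPRED3 and -0.0039 to 0.28 for SPRY1.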
